A study of Mus musculus with 20 samples.

Results

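The clustered protocadherins are cadherin-family adhesion proteins encoded side by side on mouse chromosome 18 in an alpha, a beta and a gamma cluster. Members were taken by symbol from the deposited mRNA table, as every gene named Pcdha, Pcdhb or Pcdhg followed by the number or letter of a variable exon. This gave 57 genes with 73 transcripts, of 21949 genes with 50660 transcripts in the table. On the plus strand of GRCm38 the 14 genes of the alpha cluster span positions 36930184 to 37187661, the 22 of the beta cluster 37264938 to 37524479 and the 21 of the gamma cluster 37661793 to 37841873. By the type of variable exon they comprise 12 alternate alpha, 22 beta, 12 gamma A, 6 gamma B and 5 C-type genes, the last being Pcdhac1 and Pcdhac2 in the alpha cluster and Pcdhgc3, Pcdhgc4 and Pcdhgc5 in the gamma cluster.

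Each alpha and gamma transcript joins 1 variable exon, which encodes the extracellular cadherin repeats and the membrane span, to constant exons shared by the whole cluster, whereas beta genes have no constant exons. Alternate isoforms are switched on in different combinations from cell to cell by promoter choice, which depends on DNA methylation, CTCF and cohesin, while most C-type isoforms are expressed more evenly across neurons. The proteins bind copies of themselves on the facing membrane, and in the mouse brain they serve self-avoidance of dendrites and axons, neuronal survival and synapse formation.

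RNA was sequenced from the frozen cerebral cortex of mice aged 3 and 10 months, either PS19 transgenics or wild type. In PS19 mice the Prnp promoter drives a human tau (MAPT) transgene with the P301S mutation. All mice were of the strain (C57BL/6 x C3H)F1 by their labels, in every group. Alleles of the parental strains were not examined. The groups were transgenic at 10 months (TG10M), wild type at 10 months (WT10M), transgenic at 3 months (TG03M) and wild type at 3 months (WT03M), with 5 libraries each. The sex of the mice is not given in the labels, and these do not state that the replicates are separate animals, so each p measures the spread between libraries, which may be technical. Levels are FPKM, that is mapped fragments scaled for the length of the transcript and the depth of the library, summed over the transcripts of a gene. In bulk tissue, fewer cells of a type and less RNA per cell cannot be told apart.

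Estimated depth was 23400000 to 31300000 fragments per library. On the first principal component of all tested genes, 3 libraries stood apart from the other 17, at 26.2 to 30.9 against -12.1 to 2.52. They were TG10M replicates 1 and 5 and WT10M replicate 5. The chaperone gene Hsp90aa1 was at 13.9 to 20.5 FPKM in these 3 and in TG03M replicates 2 to 5, against 532 to 687 FPKM in the other 13 libraries. Markers of neurons (8 of 8 listed) summed to 2430 to 2806 FPKM in TG10M, 2413 to 2890 in WT10M, 2545 to 2919 in TG03M and 2602 to 2918 in WT03M, with no marker at 0. The markers of serotonin neurons (3 of 3 listed) summed to at most 0.972 FPKM in any library.

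Because of the constant exons, the members of the alpha and gamma clusters were not measured independently. Of the exon bases of a gene, 48.6 to 54.9% (median 53.4%) were shared with another member in the alpha cluster and 39.5 to 45.5% (median 44.8%) in the gamma cluster. In the beta cluster the median was 0%, and the highest value was 9.67%, for Pcdhb21. A fragment from a constant exon therefore had to be assigned among members by the authors' software, whereas a sum over a cluster does not depend on that split except through transcript length. One gene listed as Pcdhga8 (ENSMUSG00000023036) is Pcdhgc4 in GENCODE M21 and is called Pcdhgc4 here. The symbol Pcdha11 stood on a pair of gene IDs, called below upstream Pcdha11 (ENSMUSG00000007440) and downstream Pcdha11 (ENSMUSG00000102206).

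All 57 members had a level above 0 in all 20 libraries. The 5 C-type genes held 32.8 to 41.3% of the summed FPKM of all members. Pcdhgc5, whose protein has been found to bind GABA-A receptors, was the highest member, with a mean of 47.1 FPKM over the 20 libraries. Pcdhgc3, which acts on dendrite branching through Axin1, followed at 16.7 FPKM. Pcdhac2, required for the spacing of serotonergic axons, was at 14.2 FPKM. Pcdhgc4, needed for the survival of cortical interneurons, was at 3.80 FPKM and Pcdhac1 at 1.57 FPKM.

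**Figure D1:**
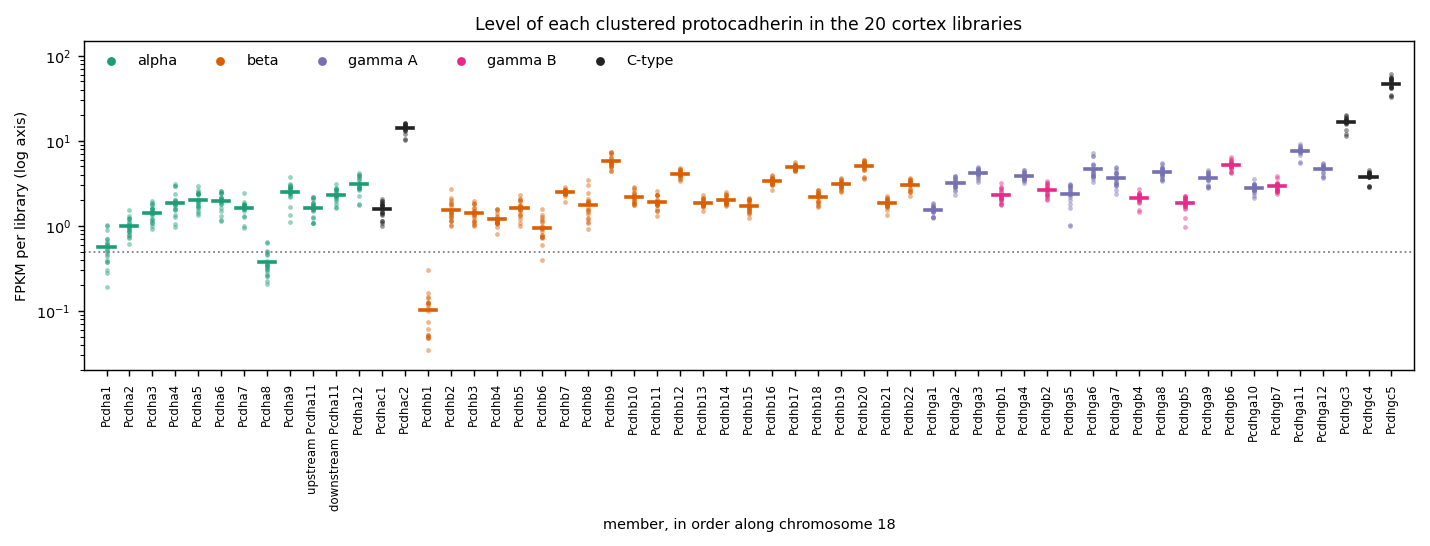
FPKM of each of the 57 clustered protocadherins (log axis) in order along chromosome 18; each point is 1 of 20 libraries, the bar is the mean, colours mark the 5 classes and the dotted line is the 0.5 FPKM needed for testing. Pcdhgc5, Pcdhgc3 and Pcdhac2 lie above every other member, and the means of Pcdha8 and Pcdhb1 lie under the line.

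The alternate members were lower and closer together. Among gamma A genes, Pcdhga11 (7.65 FPKM), Pcdhga12 (4.71 FPKM) and Pcdhga6 (4.67 FPKM) had the highest means and Pcdhga1 (1.54 FPKM) the lowest, with a class median of 3.75 FPKM. Among gamma B genes Pcdhgb6 (5.21 FPKM), Pcdhgb7 (2.91 FPKM) and Pcdhgb2 (2.64 FPKM) led and Pcdhgb5 (1.86 FPKM) was lowest, with a median of 2.46 FPKM. Beta genes had a median of 1.96 FPKM, led by Pcdhb9 (5.76 FPKM), Pcdhb20 (5.05 FPKM) and Pcdhb17 (4.90 FPKM). Alternate alpha genes had a median of 1.76 FPKM, led by Pcdha12 (3.09 FPKM), Pcdha9 (2.52 FPKM) and downstream Pcdha11 (2.32 FPKM). Genes with a mean of at least 0.5 FPKM were tested, which left out Pcdha8 (0.371 FPKM) and Pcdhb1 (0.103 FPKM). The next members above that level were Pcdha1 (0.558 FPKM) and Pcdhb6 (0.942 FPKM), so 55 of 57 members were tested.

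Members differed in how steady they were between replicates. Outside the 3 libraries apart, the pooled coefficient of variation within groups had a median of 7.30% for C-type, 9.36% for beta, 9.97% for gamma A, 10.5% for gamma B and 14.5% for alternate alpha genes. From the estimated fragments behind them, counting alone would give medians of 2.26, 6.88, 4.70, 5.96 and 6.62% for those classes in the same order. All 35 members of the other 4 classes and 21 of 22 beta genes lay above their own counting value. The steadiest was Pcdhac2 at 5.45% and the least steady tested member was Pcdha1 at 32.3%, where counting alone would give 12.2%. The estimated fragments behind a member had a median over libraries of 100 or more in 51 of the 57 members and reached 100 in every library in 47, from a median of 6.59 for Pcdhb1 to 4224 for Pcdhgc5.

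The 3 libraries apart had low alpha and gamma sums, and beta sums that were lowest within their own groups by a smaller margin. The summed level of the alpha cluster was 26.9, 36.1, 35.9, 33.2 and 24.1 FPKM in TG10M replicates 1 to 5, against 39.8, 42.0, 42.0, 40.9 and 25.1 FPKM in WT10M replicates 1 to 5. It was 35.2, 34.6, 34.1, 33.8 and 37.5 FPKM in TG03M, against 43.0, 38.1, 38.5, 39.1 and 42.8 FPKM in WT03M. At both ages the transgenic libraries thus lay below the wild-type libraries apart from WT10M replicate 5, which at 25.1 FPKM lay below 4 of the 5 TG10M libraries. At 3 months the groups did not overlap, and TG03M replicate 1, which had no low Hsp90aa1, lay inside the range of the other 4 TG03M libraries. Counting only the main transcript of each member, the groups overlapped, at 31.7 to 35.3 FPKM in TG03M and 34.8 to 41.1 FPKM in WT03M.

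The gamma sum was 104.6, 128, 133, 132 and 105.1 FPKM in TG10M replicates 1 to 5, against 135, 137, 145, 132 and 97.0 FPKM in WT10M. It was 135 to 143 FPKM in TG03M, against 130 to 146 FPKM in WT03M. Among all 20 libraries, only the 3 apart lay below 128 FPKM. The beta sum was 50.1 to 57 FPKM in TG10M, 54.9 to 60.6 FPKM in WT10M, 49.3 to 57.3 FPKM in TG03M and 51.5 to 56.4 FPKM in WT03M. TG10M replicates 1 and 5, at 50.1 and 50.8 FPKM, lay below the other TG10M libraries, at 52.1 FPKM or more, and WT10M replicate 5, at 54.9 FPKM, below the other WT10M libraries, at 55.2 FPKM or more. Libraries of 3 months reached as low as 49.3 FPKM.

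**Figure D2:**
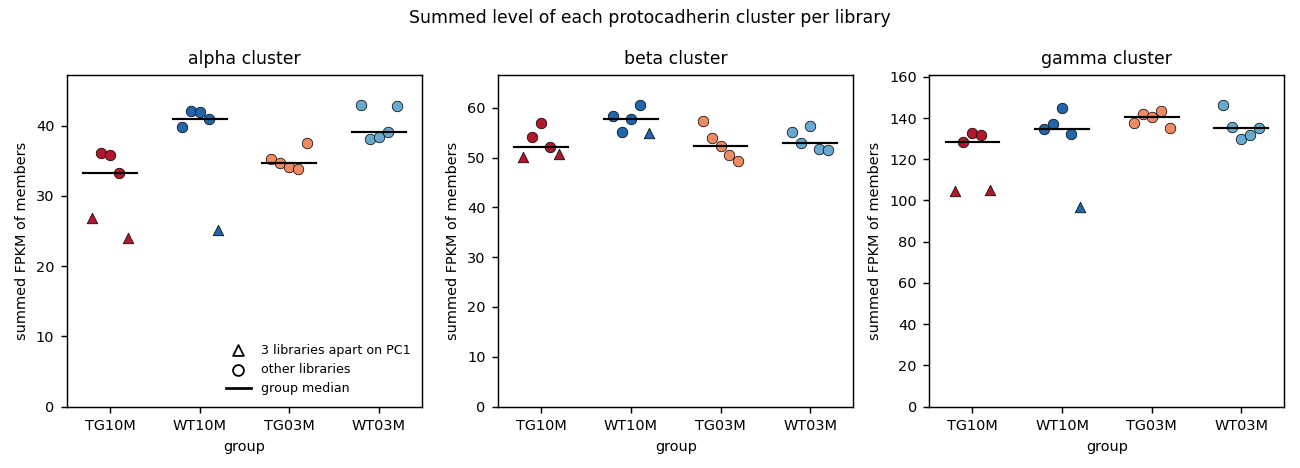
Summed FPKM of the alpha, beta and gamma clusters per library in the 4 groups; circles and triangles are libraries, triangles the 3 libraries apart on the first principal component, and lines are group medians. The triangles lie lowest in the alpha panel (24.1 to 26.9 FPKM) and the gamma panel (97.0 to 105.1 FPKM) and, by a small margin, are also the lowest of their own groups in the beta panel (50.1 to 54.9 FPKM).

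Counted by gene, 27 of 57 members lay lower in all 3 libraries apart than in each of the other 7 libraries of 10 months, and 1 lay higher. The 27 comprised 10 of 14 genes of the alpha cluster, 6 of 22 beta genes and 11 of 21 genes of the gamma cluster. Over all 13722 tested genes, 18.7% lay lower and 15.6% higher by the same measure. Of the members counted, Pcdha8 (lower) and Pcdhb1 (the 1 higher) were not among the tested genes. The neuron markers summed to 2413 to 2430 FPKM in the 3 libraries apart and to 2538 to 2919 FPKM in the others. The highest single neuron marker averaged 1627 FPKM over the 20 libraries, so it weighs most in these sums. The non-clustered protocadherins (12 of 12 listed) summed to 250 to 256 FPKM and 259 to 289 FPKM. The part of these genes in the values of the clustered members was not tested. Counts and medians over the members at 10 months are therefore given with and without these 3 libraries. Values of single genes use all 20 libraries unless stated.

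In transgenic cortex at 10 months no clustered protocadherin passed the test against wild type of that age, but nearly all members had a lower mean. Of 55 tested members, 0 were called by limma at an adjusted p under 0.05 (Benjamini-Hochberg), while 0.583% of all genes were called higher and 0.051% lower. At an unadjusted limma p under 0.05 there were 10 of 55 members, all lower, against 1933 of 13722 genes in either direction. The difference was negative in 50 of 55 members, with a median of -0.12 on the log2(FPKM + 0.5) scale, against 0.00 over all tested genes. Without the 3 libraries apart it was negative in 46 of 55, again with a median of -0.12.

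The alternate alpha genes lay furthest down at this age. All 11 tested were negative, from -0.43 to -0.16 with a median of -0.31, and from -0.51 to -0.05 with a median of -0.23 without the 3 libraries apart. Since they share constant exons, they do not count as 11 separate observations. Pcdha12 was at 1.82, 2.88, 2.96, 2.80 and 1.75 FPKM in TG10M replicates 1 to 5, against 3.19, 4.02, 3.76, 3.85 and 2.23 FPKM in WT10M. Apart from those 3 libraries each TG10M library was below each WT10M library. The means were 2.44 ± 0.603 FPKM in TG10M and 3.41 ± 0.730 FPKM in WT10M (SD, n = 5 each), a difference of -0.41 (SE 0.15, limma adjusted p = 0.210).

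Pcdha4 was at 1.57, 1.73, 1.80, 1.34 and 0.961 FPKM in TG10M, against 2.94, 2.37, 3.07, 1.86 and 1.04 FPKM in WT10M, a difference of -0.43 (SE 0.20, limma adjusted p = 0.330). Pcdha5 averaged 1.71 ± 0.331 FPKM in TG10M and 2.33 ± 0.383 FPKM in WT10M (SD, n = 5 each), a difference of -0.36 (limma adjusted p = 0.233). The largest positive differences were small, at 0.13 for Pcdhb8, 0.06 for Pcdhb22 and 0.02 for Pcdhgb1. Pcdhb8 lay between 1.19 and 3.00 FPKM in TG10M, and WT10M covered 1.07 to 3.46 FPKM, so the groups overlapped almost fully. Pcdhgc5 differed by -0.09 and Pcdhgc3 by 0.01, with limma adjusted p = 0.686 and 0.979.

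With all 20 libraries no member separated TG10M from WT10M, where 1.65% of all genes lay higher and 0.729% lower without overlap. Without the 3 libraries apart, 12 of 55 members (21.8%) lay lower in TG10M without overlap and 0 higher, against 9.08% and 8.78% of all genes. The 12 were Pcdha2, Pcdha4, Pcdha5, Pcdha6, Pcdha12, Pcdhb3, Pcdhb6, Pcdhb19, Pcdhga5, Pcdhga7, Pcdhga8 and Pcdhgb5. No member was called in that fit, in which 1.28% of genes were called higher and 1.09% lower. When WT10M replicate 5 alone was left out, 8 of 55 members were called lower and 0 higher, against 824 of 13722 genes lower and 776 higher. The libraries apart then belong to TG10M only, so this fit does not separate genotype from that set, unlike the fit without all 3.

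Marker genes of several cell types also had higher or lower medians in this comparison. Of them limma called 1 astrocyte, 1 microglia and 1 mural cell marker higher, and no other tested marker. Neuron markers had a median difference of -0.08 (2 of 8 positive), interneuron markers 0.06 (4 of 6) and choroid plexus markers -0.19 (1 of 6). The median was 0.19 for oligodendrocytes (5 of 5 positive) and 0.15 for their precursors (4 of 4). It was 0.23 for endothelial cells (4 of 4), 0.19 for mural cells (4 of 4) and 0.20 for blood (3 of 3). The markers of striatal neurons (5 of 5 listed) summed to 77.1 to 177 FPKM in TG10M and 162 to 235 FPKM in WT10M. Astrocyte markers (6 of 6 listed) summed to 1261 to 1355 FPKM in TG10M and 1072 to 1210 FPKM in WT10M, and microglia markers (5 of 5 listed) to 161 to 210 FPKM and 117 to 171 FPKM. None of these markers was listed at 0 in all libraries, and their part in the protocadherin differences was not tested.

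At 3 months the transgenic difference was again negative in every tested alternate alpha gene, while gamma A genes were mostly higher. No member was called by limma, where 0.277% of all genes were called higher and 0.0219% lower. At an unadjusted limma p under 0.05 there were 2 of 55 members, against 1454 of 13722 genes. The 11 alpha genes ran from -0.32 to -0.03 with a median of -0.22, and 10 of 12 gamma A genes were positive with a median of 0.08. With the 7 libraries of low Hsp90aa1 as a term, 45 of the 55 members were positive and 6 of the 9 alternate alpha genes named by rule were positive. That term gives 1 shared shift to the 3 libraries apart and to TG03M replicates 2 to 5. Their alpha sums differed, at 24.1 to 26.9 FPKM in the former and 33.8 to 37.5 FPKM in the latter. TG03M replicate 1, outside the term, was at 35.2 FPKM, against 38.1 FPKM or more in WT03M. With the shift pooled in this way, the fit cannot decide the sign at 3 months. Without that term the median over all 55 members was -0.01, with 25 positive, and over all genes it was 0.00. A fit without the 3 libraries apart, which narrows the shared spread, called 1.53% of genes higher and 1.92% lower at 3 months but again no member.

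Pcdha3 was at 1.13, 1.08, 1.19, 1.39 and 1.40 FPKM in TG03M, against 1.96, 1.48, 1.79, 1.76 and 1.40 FPKM in WT03M, a difference of -0.32 (SE 0.12, limma adjusted p = 0.306). Pcdha1 was at 0.402 to 0.534 FPKM in TG03M, against 0.582 to 1.03 FPKM in WT03M, a difference of -0.32 (limma adjusted p = 0.502). It was the only member whose groups did not overlap at 3 months, where 2.01% of all genes lay higher and 2.47% lower without overlap. Upstream Pcdha11 differed by -0.32 (limma adjusted p = 0.403). The largest positive differences were 0.19 for Pcdhga2, 0.18 for Pcdhgb1 and 0.16 for Pcdhga8, with limma adjusted p = 0.503, 0.648 and 0.601. When the 3 libraries apart entered the fit as a term, Pcdha3 was called at the same difference of -0.32 (limma adjusted p = 0.0427). At this age choroid plexus markers had a median difference of 0.96 (6 of 6 positive) and summed to 10.5 to 1033 FPKM in TG03M and 6.89 to 36.1 FPKM in WT03M, and microglia markers had a median of 0.13 (5 of 5 positive). Striatal markers had a median of -0.21 (0 of 5 positive) and summed to 86.7 to 211 FPKM in TG03M and 81.0 to 212 FPKM in WT03M, and 4 of 5 TG03M libraries but no WT03M library had low Hsp90aa1. The part of these in the protocadherin differences was not tested.

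**Figure D3:**
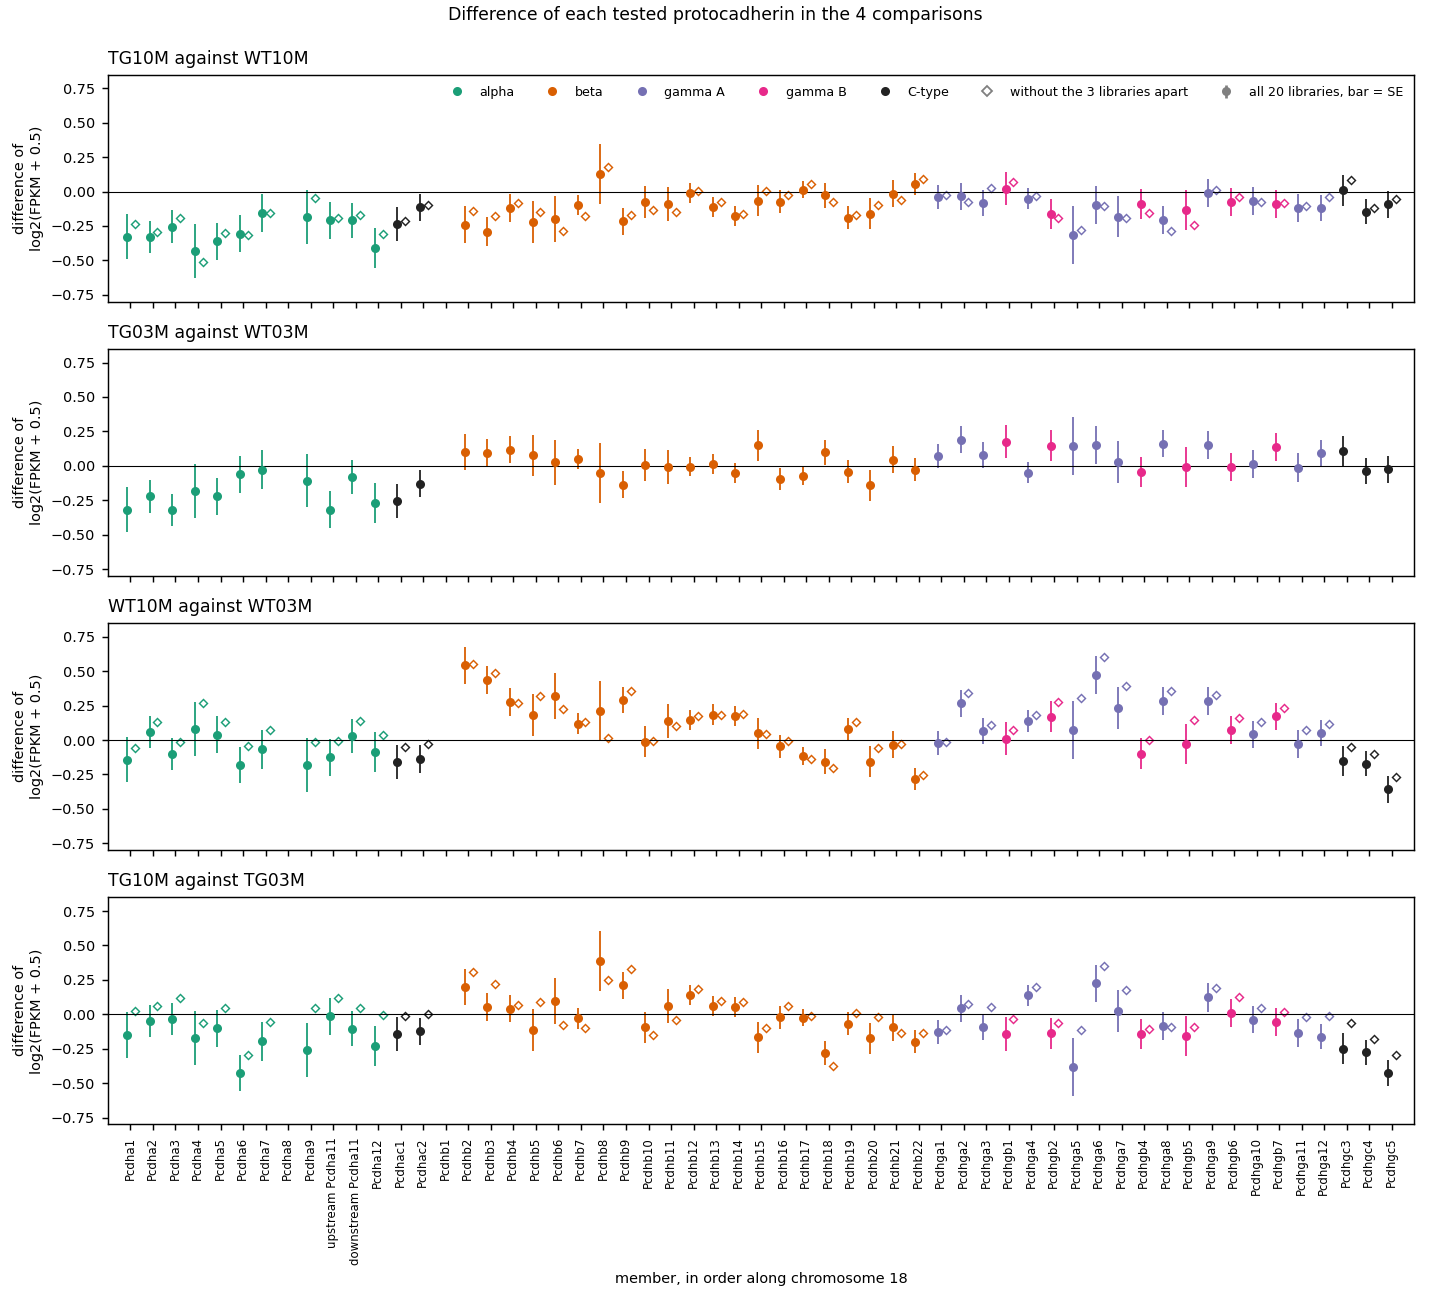
Difference of each of the 55 tested members in the 4 comparisons, on the log2(FPKM + 0.5) scale, in order along chromosome 18; filled points with SE bars use all 20 libraries and open diamonds leave out the 3 libraries apart, which take no part in the second panel. Alpha genes lie below 0 in both genotype panels, and Pcdhb2 and Pcdhga6 stand high and Pcdhgc5 low in the panel of wild type by age.

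With age in wild type, upstream beta genes and several gamma A genes had higher means and Pcdhgc5 a lower one, but no member was called with all 20 libraries. Few genes passed this comparison at all, with 0.051% called higher and 0.0146% lower. There were 12 of 55 members at an unadjusted limma p under 0.05, 10 of them higher, against 922 of 13722 genes in either direction. The median of the 55 was 0.05, against 0.00 over all genes. The limma fit shares the WT10M and WT03M libraries with the genotype comparisons, so these values are not independent of those above.

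Pcdhb2 was at 1.46, 1.82, 2.03, 2.74 and 1.90 FPKM in WT10M, against 1.15, 1.28, 1.36, 1.17 and 1.01 FPKM in WT03M. Every WT10M library was above every WT03M library. The difference was 0.54 (SE 0.13, limma adjusted p = 0.212), and 0.55 without the 3 libraries apart (limma adjusted p = 0.182). Pcdhb3 was at 1.81, 1.81, 1.94, 1.85 and 1.48 FPKM in WT10M, against 1.39, 1.12, 1.34, 1.03 and 1.04 FPKM in WT03M. Its groups also did not overlap, with a difference of 0.44 (SE 0.10, limma adjusted p = 0.212).

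Pcdhga6 was at 7.17, 5.17, 6.63, 5.24 and 3.57 FPKM in WT10M, against 3.84, 3.28, 4.05, 3.98 and 3.76 FPKM in WT03M. Only WT10M replicate 5, one of the libraries apart, lay inside the WT03M range. The difference was 0.47 (SE 0.14, limma adjusted p = 0.329). Without the 3 libraries apart both Pcdhb3 (0.49) and Pcdhga6 (0.61) were called higher with age, each at limma adjusted p = 0.0466, in a fit that called 0.0656% of genes higher and 0.0146% lower. Both calls were lost in each of 9 fits that left out 1 further library, and without the 7 libraries of low Hsp90aa1. Pcdhb9 was at 0.36 without the 3 libraries (limma adjusted p = 0.152).

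Along the beta cluster the sign changed with position. Of the 13 tested genes Pcdhb2 to Pcdhb14, 12 were positive with a median of 0.19, and of the 8 genes Pcdhb15 to Pcdhb22, 6 were negative with a median of -0.08, a division made after the values were seen. Pcdhb22 at the downstream end was at 2.73, 2.50, 3.10, 2.68 and 2.48 FPKM in WT10M, against 3.42, 3.28, 3.62, 3.26 and 3.32 FPKM in WT03M, again without overlap (difference -0.28, SE 0.08, limma adjusted p = 0.327). The same division gave 10 of 13 positive and 8 of 8 negative for TG10M against TG03M. Leaving out the 3 libraries apart gave 9 of 13 and 6 of 8 there, with medians of 0.09 and -0.06, and 12 of 13 and 6 of 8 in wild type, with medians of 0.19 and -0.04. Beta genes have no constant exons, and the most that any of them shared was 9.67% of its exon bases.

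Without overlap, 4 members (Pcdhb2, Pcdhb3, Pcdhb13 and Pcdhb14) lay higher in WT10M and 1 (Pcdhb22) lower, that is 7.27% and 1.82% of the 55, against 0.86% and 0.794% of all genes. Without the 3 libraries apart, 11 members (20% of the 55) lay higher, against 1.81% of all genes, and Pcdhb22 lower, against 1.58%. These added Pcdhb9, Pcdhga2 and Pcdhga5 to Pcdhga9. Choroid plexus markers (6 of 6 listed) summed to 12.7 to 508 FPKM in WT10M and 6.89 to 36.1 FPKM in WT03M, and striatal markers to 162 to 235 FPKM and 81.0 to 212 FPKM. Their part was not tested.

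With age in transgenic cortex Pcdhgc5 fell, the only call among members in any comparison of the 20 libraries. It was at 33.5, 43.3, 43.3, 42.5 and 34.7 FPKM in TG10M, against 51.7, 53.5, 56.5, 53.1 and 49.7 FPKM in TG03M. All TG10M libraries were below all TG03M libraries, whether apart or not. The means were 39.5 ± 4.91 FPKM in TG10M and 52.9 ± 2.50 FPKM in TG03M (SD, n = 5 each). The difference was -0.43 (SE 0.10, limma adjusted p = 0.0407), in a comparison that called 0.204% of genes lower and 0.641% higher.

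The call on Pcdhgc5 was narrow. Without the 3 libraries apart the difference was -0.29 (limma adjusted p = 0.0834), and it was -0.43 with the compared groups alone (limma adjusted p = 0.0517). Leaving out any 1 of the 10 libraries compared ended the call, with limma adjusted p = 0.0527 to 0.130, except TG10M replicates 2 and 3. With the libraries apart as a term in the fit it was -0.27 (limma adjusted p = 0.0543). In wild type Pcdhgc5 was at 42.0, 44.0, 50.7, 42.1 and 32.5 FPKM in WT10M, against 61.3, 54.4, 48.2, 51.6 and 54.2 FPKM in WT03M. There WT10M replicate 3 lay above WT03M replicate 3, and the difference was -0.36 (SE 0.10, limma adjusted p = 0.273). Neuron markers had a median difference of -0.22 for TG10M against TG03M (1 of 8 positive), interneuron markers -0.16 (2 of 6 positive) and choroid plexus markers -0.46 (0 of 6 positive). Of 5 microglia markers all were positive, with a median of 0.17, and C1qa and Cx3cr1 were called higher by limma. Their part in the Pcdhgc5 difference was not tested. The age differences of the 2 genotypes differed by -0.07 (SE 0.14, limma adjusted p = 0.986 for the interaction).

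**Figure D4:**
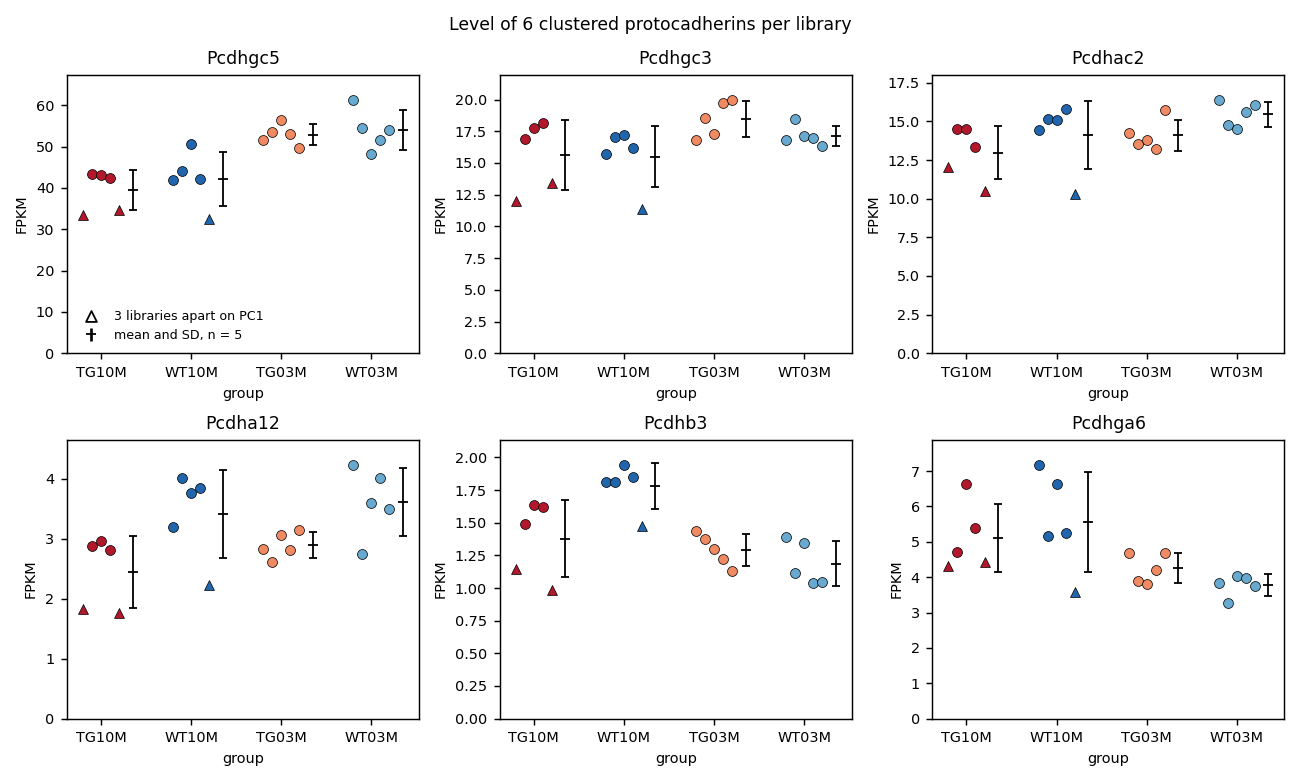
FPKM of 6 clustered protocadherins per library in the 4 groups; triangles are the 3 libraries apart, and the bars are the mean and SD of 5 libraries. Pcdhgc5 lies at 33.5 to 43.3 FPKM in TG10M and 49.7 to 56.5 FPKM in TG03M, and the triangle in WT10M is the lowest of its group for each of the 6 genes.

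The other C-type genes were lower at 10 months in the same comparison but were not called. Pcdhgc4 averaged 3.29 ± 0.591 FPKM in TG10M and 4.06 ± 0.296 FPKM in TG03M (SD, n = 5 each; difference -0.28, limma adjusted p = 0.160), and the difference was -0.18 without the 3 libraries apart (limma adjusted p = 0.522). Pcdhgc3 was at 12 to 18.2 FPKM in TG10M and 16.8 to 20 FPKM in TG03M (difference -0.25), but at -0.07 without the 3 libraries apart. Pcdhac2 (-0.12) and Pcdhac1 (-0.14) were both at about 0 without these libraries (0.00 and -0.01).

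Over the 55 members 39 were negative, with a median of -0.09 against 0.00 over all genes, and all 11 alternate alpha genes were among them. Leaving out the 3 libraries apart gave 27 negative with a median of 0.00, 7 of the 11 alpha genes positive and no member called, against 0.466% of genes called higher and 0.0656% lower. Pcdha6 was at 1.14 to 1.80 FPKM in TG10M and 1.95 to 2.42 FPKM in TG03M, without overlap (difference -0.43, limma adjusted p = 0.131). Pcdhb18 was at 2.26, 1.71, 1.94, 1.74 and 2.16 FPKM in TG10M, against 2.41, 2.60, 2.65, 2.41 and 2.34 FPKM in TG03M, also without overlap (difference -0.28, limma adjusted p = 0.140). Leaving out the 3 libraries apart put Pcdhb18 at -0.38 (limma adjusted p = 0.0924), and with them as a term it was called lower (limma adjusted p = 0.0369). With Pcdhgc5 these made 3 of 55 members (5.45%) lower without overlap, against 1.57% of all genes. No member lay higher without overlap, against 1.84% of genes, and the largest positive differences were 0.39 for Pcdhb8, 0.22 for Pcdhga6 and 0.21 for Pcdhb9. The main transcript of Pcdhb8 was at 0.963 to 1.58 FPKM in TG10M and 0.930 to 1.53 FPKM in TG03M. Its 462-base transcript was at 0.230 to 1.62 FPKM in TG10M and 0 to 1.01 FPKM in TG03M. Pcdhga5 differed by -0.38 with all libraries but by -0.11 without the 3 apart, of which TG10M replicate 5 was at 1.01 FPKM. Higher without overlap once these 3 were left out were Pcdhb3, Pcdhga4 and Pcdhga6, again 5.45% of the 55, against 3.26% of genes. Pcdha6, Pcdhb18 and Pcdhgc5 still lay lower without overlap, also 5.45%, against 2.65% of genes. The limma fit shares TG10M and TG03M with the genotype comparisons.

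The composition of the clusters differed by age in both genotypes. Pcdhgc5 made up 18.4 to 19.8% of the summed FPKM of all 57 members in TG10M and 18 to 20.8% in WT10M, against 22.4 to 24.9% in TG03M and 21.4 to 25.1% in WT03M. All 10 libraries of 10 months were below all 10 of 3 months, and the 3 libraries apart, at 18.3 to 19.3%, lay among the others of their age. The 5 C-type genes together held 32.8 to 36.5% at 10 months and 38.2 to 41.3% at 3 months, again without overlap. From the main transcript of each member alone the C-type share was 28.3 to 33.6% at 10 months and 33.1 to 38.4% at 3 months, with overlap. This share was computed after the levels had been seen and is given as a description with no test.

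Gamma A and beta genes held higher shares at 10 months, with some overlap between the ages. Gamma A genes held 21.1 to 23.7% at 10 months and 18.2 to 21.4% at 3 months, and beta genes 23.6 to 31.0% and 22.2 to 25.1%. Beta shares were highest in the 3 libraries apart, at 27.6 to 31.0%. With Pcdhgc5 left out of the total, the gamma A share was 25.9 to 28.9% at 10 months and 23.9 to 28.0% at 3 months, and the share of the other 4 C-type genes was 17.8 to 21% and 21 to 23.5%, which nearly separated the ages. At 3 months the genotypes did not overlap in the shares of 2 classes. Alternate alpha genes held 8.34 to 9.30% in TG03M and 9.49 to 10.8% in WT03M, and gamma A genes 19.9 to 21.4% in TG03M and 18.2 to 19.5% in WT03M. With Pcdhgc5 left out of the total, the gamma A shares overlapped, at 25.7 to 28.0% in TG03M and 23.9 to 26.0% in WT03M. At 10 months both classes overlapped between genotypes, with alternate alpha shares of 6.99 to 9.17% in TG10M and 7.76 to 10.7% in WT10M.

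**Figure D5:**
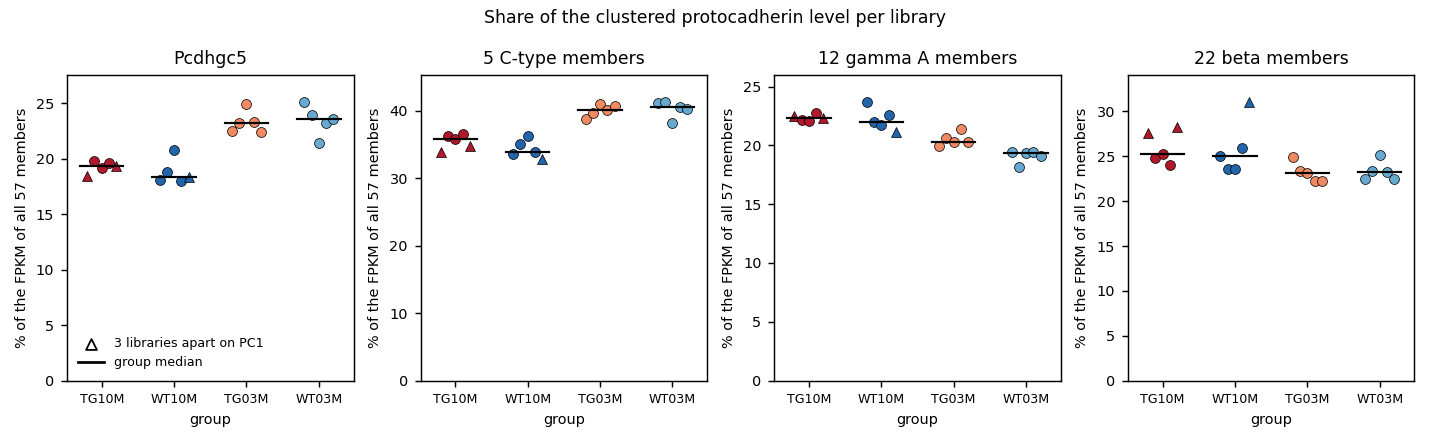
Share of the summed FPKM of all 57 members held by Pcdhgc5, by the 5 C-type, the 12 gamma A and the 22 beta genes, per library in the 4 groups; triangles are the 3 libraries apart and lines are group medians. Pcdhgc5 lies at 18 to 20.8% in the libraries of 10 months and at 21.4 to 25.1% in those of 3 months, and beta genes are highest in the triangles.

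The deposited level of Pcdhgc5 is a sum over 3 transcripts. The 4741-base transcript, the longest, averaged 31.8 FPKM, a 593-base transcript 13.2 FPKM and a 444-base transcript 2.16 FPKM. The long transcript was at 21.2, 27.3, 32.0, 30.2 and 20.9 FPKM in TG10M, against 31.6, 34, 38.0, 37.7 and 39.2 FPKM in TG03M. TG10M replicate 3 lay just inside the TG03M range, and the difference was -0.47 (SE 0.14, limma adjusted p = 0.182 over all transcripts). In wild type the long transcript differed by -0.24 with age (limma adjusted p = 0.883) and the 593-base one by -0.76 (SE 0.20, limma adjusted p = 0.425). Counted by length-weighted FPKM, in which short transcripts weigh less, Pcdhgc5 held 13.0 to 15.9% at 10 months and 16.0 to 19.1% at 3 months, so the ages stayed apart by a narrow margin. Counting only the main transcript of each member, the ages overlapped, at 12.2 to 15.5% and 15.2 to 18.8%.

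No member passed the test of whether the genotype difference changed with age. Of all genes, 0.0364% were called positive and 0% negative in this interaction. An unadjusted limma p under 0.05 was found for 2 of 55 members, Pcdhb3 and Pcdhga8, against 691 of 13722 genes. The interaction was negative in 47 of 55 members, among them all 12 gamma A and all 6 gamma B genes, with a median of -0.12, against 0.00 over all genes. Pcdhga5 was at -0.46 (SE 0.30), Pcdhb3 at -0.38 (SE 0.15) and Pcdhga8 at -0.37 (SE 0.14), each at limma adjusted p = 0.962. Pcdhga8 was at 4.18, 4.54, 3.45, 4.2 and 4.03 FPKM in TG10M, against 5.42, 5.40, 4.75, 4.63 and 3.81 FPKM in WT10M, and at 3.41 to 4.96 FPKM in TG03M, against 3.54 to 4.15 FPKM in WT03M. In the fit without the 3 libraries apart 42 of 55 were negative, with a median of -0.11 and no member called, against 0.0292% of genes positive and 0% negative.

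Few genes known to act on the clusters were called. Of 19 tested regulators of their chromatin and transcription, such as Ctcf, the cohesin subunits and DNA methyltransferases, 0 were called in any comparison by limma. Stag1, a cohesin subunit, was closest, at 62.1 to 81.8 FPKM in TG10M and 79.0 to 91.8 FPKM in WT10M (difference -0.25, limma adjusted p = 0.130). Of the 19 regulators, 2 were positive for TG10M against WT10M (median -0.05). For TG10M against TG03M 3 were positive (median -0.08), and for the interaction 3 (median -0.06). For TG03M against WT03M 9 were positive and for WT10M against WT03M 8, both with a median of -0.01. The 20 listed regulators summed to 374 to 420 FPKM in TG10M and 413 to 456 FPKM in WT10M. Only WT10M replicate 5, at 413 FPKM, lay in the TG10M range. Their part in the protocadherin values was not tested. Of 26 tested partners and effectors, Rac1, the GTPase upstream of the WAVE complex that protocadherins recruit, rose in transgenic cortex at both ages. Rac1 was at 81.4 to 91.9 FPKM in TG10M, against 67.7 to 81.9 FPKM in WT10M (difference 0.23, limma adjusted p = 0.0390), and at 87.1 to 99.3 FPKM in TG03M, against 69.6 to 73.6 FPKM in WT03M (difference 0.40, limma adjusted p = 0.000617). The call at 10 months ended in a fit of the compared groups alone, with the replicate block, and in 9 of 10 fits without 1 of the compared libraries, and the one at 3 months without the 7 libraries of low Hsp90aa1, which leaves only TG03M replicate 1, at 87.1 FPKM. Abi2, a WAVE complex subunit, fell with age in transgenic cortex, to 88.4 to 101.7 FPKM in TG10M against 104.7 to 111 FPKM in TG03M (difference -0.19, limma adjusted p = 0.0345), a call that ended without the 3 libraries apart or with them as a term, with quantile normalization, the compared groups alone or the replicate block, and in 7 of 10 fits without 1 library. Of 11 tested non-clustered protocadherins, which lie outside the clusters, 0 were called in any comparison, with medians from -0.11 for TG10M against TG03M to 0.03 for TG03M against WT03M.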

How the data were processed

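The authors deposited FPKM values per transcript for 20 libraries. The submitters' processing notes name CASAVA, TopHat2, Cuffdiff, DESeq2 and GRCm38 (mm10); their roles and versions were not given in the sources used here. Values were summed per gene ID, and coordinates and shared exon bases were taken from GENCODE M21. The members and the gene lists were chosen with earlier results of these data known, and so were the 3 libraries treated as apart.

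The test was limma 3.58.1 (R 4.3.3) on log2(FPKM + 0.5) with 1 mean per group over all 20 libraries, a trended prior, 13722 genes with a mean of at least 0.5 FPKM, and Benjamini-Hochberg adjustment over all of them at 0.05. It was tested on simulated data with known changes. Fold differences on this scale understate changes of low genes. Named were the C-type genes, the 3 highest and the lowest of each other class, members called, the 3 largest differences each way per comparison, and the members next to the filter; other names were chosen after their values were seen.

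Read counts were not used. In 1815 genes with 1 transcript of over 4000 bases, 85.0 to 93.1% of low values lay within 0.1 of a whole multiple of a step, against 20% for evenly spread values, which gave the depth estimate. The step was set from these values. It covers counting error only.

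The deposited tables of assembled non-coding transcripts were not used here. Python 3.11.15, pandas 2.3.3 and matplotlib 3.10.9 were used for sums and plots.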

Additional observations from a re-analysis of the deposited data

Results flagged for a closer look

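In 156 groups of 5 libraries (the 36 members named by rule and the 3 cluster sums, by group; the other 21 members were not examined), a single library lay far from the other 4 in 14 cases, by a gap of over 0.71 of the group's range. Chance gives about 1 such case in 20 groups that are independent and normally distributed. These groups reuse the same 20 libraries and share constant exons, so the 14 cases cannot be set against that rate. WT10M replicate 5 was that library 9 times, always on the low side. It had an alpha cluster sum of 25.1 FPKM (others 39.8 to 42.0) and a gamma cluster sum of 97.0 FPKM (others 132 to 145). Its Pcdhac2 was at 10.3 FPKM, Pcdhgc3 at 11.4 FPKM, Pcdhgc4 at 2.93 FPKM and Pcdhb20 at 3.70 FPKM. Its Pcdhb3 was at 1.48 FPKM, Pcdhga5 at 1.04 FPKM (others 2.83 to 3.07) and Pcdhgb5 at 0.967 FPKM (others 2.07 to 2.25).

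Pcdhgb5 was also far down in TG10M replicate 5, at 1.25 FPKM (others 1.72 to 1.82), another of the 3 libraries apart. The other 4 cases were single high values of alpha and beta genes. Pcdha1 was at 0.900 FPKM in TG10M replicate 2 (others 0.190 to 0.372) and at 1.03 FPKM in WT03M replicate 1 (others 0.582 to 0.708). Pcdha9 was at 3.75 FPKM in WT03M replicate 5 (others 2.39 to 2.77), and Pcdhb1 at 0.144 FPKM in WT03M replicate 3 (others 0.0349 to 0.0525).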

How the results depend on the processing

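Values of named members kept their side of the threshold in 4674 of 4716 refits under other settings, 27 gained a call and 15 lost one. Only 1 of the 170 values with all 20 libraries was called, so nearly all of the 4674 were uncalled values that stayed uncalled. The sign differed in 241 of the 4716, in none of which the value was called with all 20 libraries. The call of Pcdhgc5 held in 9 of 16 other settings and in 2 of 10 fits without 1 of the compared libraries. All 15 lost calls were of Pcdhgc5 in TG10M against TG03M. Members called there were 0 with the compared groups alone, with transcripts in place of genes, and without the 3 libraries apart (also with median centring or with the replicate block, where the median difference was 0.012, all chosen after seeing the data), and 0 without the 7 libraries of low Hsp90aa1, which leaves 1 TG03M library. With those 7 as a term 13 of 55 members were called lower and 0 higher, against 1388 of 13722 genes lower and 931 higher. That term gives 1 shared shift to the 3 libraries apart and to TG03M replicates 2 to 5, which did not stand apart. Fits with it therefore cannot decide differences that involve TG03M. With the 3 libraries apart as a term the median was 0.023 and Pcdhb18 took the place of Pcdhgc5 (-0.38, limma adjusted p = 0.0369). For WT10M against WT03M, 2 members were called without the 3 libraries apart (also with median centring) or with them as a term, and 1 with the 7 as a term or without the 3 and with the replicate block. For TG03M against WT03M, 1 was called with the 3 as a term, and the median was 0.13 with the 7 as a term, where the interaction median was -0.26. The causes were not tested.

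Leaving out 1 library at a time gave 0 to 8 members called for TG10M against WT10M, 0 to 1 for TG10M against TG03M and 0 for the other comparisons. The medians ran from -0.19 to -0.09 for TG10M against WT10M, -0.03 to 0.02 for TG03M against WT03M, 0.01 to 0.12 for WT10M against WT03M, -0.12 to -0.05 for TG10M against TG03M and -0.18 to -0.09 for the interaction. The replicate block with all 20 libraries changed no call of a member (1 call for TG10M against TG03M). Same-numbered libraries of different groups had deviations correlated at -0.42 to 0.66, over 0.1 in 5 of 20 pairs. The highest was between TG10M and WT10M replicates 5, both among the 3 libraries apart. Libraries of different numbers were not compared, so these values cannot decide whether the numbers pair them.

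Regulators and partners called for TG10M against WT10M, 1 with all 20 libraries, were 0 to 7 with 1 library left out, 0 with the compared groups alone or the replicate block, and 2 in every setting that removes or models the 3 or the 7 libraries. For TG03M against WT03M they were 2 with the 3 libraries as a term or left out with median centring, and 0 without the 7. For TG10M against TG03M they were 0 to 2 with 1 library left out. They were 2 with a pseudocount of 1, a filter of 0.1, no filter or median centring, and 15 with the 7 as a term. They were 0 with quantile normalization, the compared groups alone, the replicate block, the 3 libraries out or as a term, or the 7 out.

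The share of Pcdhgc5 averaged 19.3% in TG10M and 23.3% in TG03M, and 18.8% in WT10M and 23.5% in WT03M, and with 1 library left out these differences were -4.22 to -3.59 and -5.17 to -4.26 points. From the main transcripts of each member the wild-type difference was -2.57 and by length-weighted FPKM -2.71. For all C-type genes, at 34.3% in WT10M and 40.3% in WT03M, it was -4.44 and -4.52, and with 1 library left out -6.49 to -5.61 (-4.93 to -4.20 in transgenic cortex). Short transcripts weigh less in both by construction. These settings were chosen after seeing the data. With 5 libraries a group and 23400000 to 31300000 fragments, differences of low alpha genes are the least certain.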

Other observations

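Genes that border or interrupt the clusters gave their own values. Taf7, which lies between the beta and gamma clusters, was at 5.04 to 6.42 FPKM in TG10M, 4.56 to 6.45 FPKM in WT10M, 5.07 to 5.51 FPKM in TG03M and 4.72 to 5.80 FPKM in WT03M. Slc25a2 in the same interval was at 0.239 to 0.526 FPKM in TG10M and 0.269 to 0.481 FPKM in WT10M. Downstream of the gamma cluster, Diaph1 was at 5.79 to 8.34 FPKM in TG10M and 5.75 to 10.1 FPKM in WT10M, with its lowest 3 values in the 3 libraries apart. Hdac3 was at 33.8 to 41.5 FPKM in TG10M and 33.5 to 44.0 FPKM in WT10M, with its highest 3 values of that age in the same libraries. Upstream of the alpha cluster, Zmat2 was at 74.6 to 80.5 FPKM in TG03M and 80.6 to 94.3 FPKM in WT03M, without overlap, and at 61.3 to 76.3 FPKM in TG10M and 61.4 to 83.8 FPKM in WT10M. No test was made of these genes, which were chosen for their position.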
